A study of Mus musculus with 6 samples.

Results

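Neat1, Malat1, Meg3, Miat, Rian and Snhg11 are long noncoding RNAs, transcripts that act or are processed as RNA and are not translated into a conserved protein. The 6 genes were taken by name from the 38355 genes listed in the count files, and all 6 passed the filter on low counts that left 17120 genes for testing. They were selected on results of these same counts at 6 and 16 months, with the age difference of Neat1 known, so their differences between ages are a description, without a test.

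RNA was sequenced from whole cortical tissue of wild-type C57BL/6 mice, an inbred laboratory strain, at 6 months (3 samples) and at 16 months (3 samples). No transgene and no treatment is named for them. A figure legend of the study gives 3 brains per age, and its methods name cortical hemispheres as the material. In the labels, 1 protocol text gives the younger age as 3 months. The methods name male mice for sequencing in the section on sorted cells, and whether this covers the whole tissue is not stated. Between 29797253 and 46519280 reads per sample were counted on genes, so that a limit of 3 counts corresponds to 0.064 to 0.1 counts per 1000000 reads (CPM). Summed levels of 8 pan-neuronal markers lay between 8465 and 9640 CPM, those of 7 excitatory neuron markers between 5259 and 6307 CPM, and those of 7 oligodendrocyte markers between 6922 and 7031 CPM. No marker of any of the 15 lists was at the limit of 3 counts, including those of thalamus, dentate gyrus and choroid plexus.

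Long noncoding RNAs of this group work in the nucleus. Neat1 is the scaffold on which paraspeckles assemble, nuclear bodies that hold RNA-binding proteins and RNAs; a short transcript ends at a polyadenylation signal, and the long transcript that builds the body runs past it. Malat1, encoded next to Neat1, collects at nuclear speckles, which store splicing factors. Meg3 and Rian are transcribed from the maternal copy of the imprinted Dlk1-Dio3 domain and host microRNAs and small nucleolar RNAs, Miat (also Gomafu) is a nuclear RNA of neurons that binds the splicing factors Sf1 and Qki, and Snhg11 is a small nucleolar RNA host gene with high expression in neurons.

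The 3′ ends are shown because the libraries were made from polyadenylated RNA, and the short Neat1 transcript ends differently from the long one and from Malat1. In the GENCODE annotation of GRCm38 (mm10), Neat1 lies at chr19:5824708-5845478 on the minus strand, with a short transcript of 3004 bases and a long one of 20771 bases. Malat1 lies at chr19:5795690-5802672 on the same strand, and the facing ends of the genes are 22036 bases apart. The capitals mark AATAAA, the polyadenylation hexamer, in the short Neat1 transcript, the last 60 bases of which lie at chr19:5842307-5842366. In the long Neat1 transcript (its last 100 bases, chr19:5824708-5824807) and in Malat1 (bases 6592 to 6691 of its longest transcript, chr19:5795982-5796081), the capitals mark 2 T-rich runs and 1 A-rich run, of the kind known to fold into a triple helix at the end of both RNAs.
Neat1 short transcript: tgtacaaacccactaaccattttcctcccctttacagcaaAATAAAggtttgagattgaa
Neat1 long transcript: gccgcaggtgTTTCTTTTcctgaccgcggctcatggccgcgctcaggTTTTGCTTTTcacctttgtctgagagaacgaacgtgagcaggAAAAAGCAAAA
Malat1: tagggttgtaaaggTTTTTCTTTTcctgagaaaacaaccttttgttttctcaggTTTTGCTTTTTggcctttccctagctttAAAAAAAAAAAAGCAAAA

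The runs were searched on the strand of the transcript only, as at least 3 T, a C and at least 4 T, as at least 4 T, GC and at least 4 T, and as at least 4 A, GC and 4 A. The windows of the long Neat1 transcript and of Malat1 shared an unbroken stretch of 16 bases, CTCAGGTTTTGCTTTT. Among the longest transcripts of 34894 listed genes, the last 100 bases held the T-rich run around C in 1.4%, the T-rich run around GC in 0.106%, the A-rich run in 0.115%, and the last-named pair together in 0.00287%, which is 1 gene, Neat1. The annotated Malat1 transcript continues for 292 bases past its A-rich run. The hexamer AATAAA stood in the last 60 bases of 40.1% of the genes. These matches describe the reference sequence, and the counts per gene do not separate the short from the long Neat1 transcript.

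Neat1 was lower in every sample of 16 months than in every sample of 6 months. Its level was 248, 267 and 247 CPM in replicates 1, 2 and 3 of 6 months and 148, 157 and 150 CPM in those of 16 months. The 3 samples of each age lay close together, with 254 ± 11.4 CPM at 6 months and 152 ± 4.59 CPM at 16 months (SD, n = 3). Neat1 was thus 40.3% lower at the older age, a log2 fold change of -0.74 (SE 0.055) in the fit across all genes, and 0.794% of the tested genes had a lower log2 fold change. The gene shares no exon base with another listed gene, and its counts of 4915 to 11645 leave little counting error. In whole tissue, fewer cells of a type and less RNA per cell cannot be told apart.

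**Figure D1:**
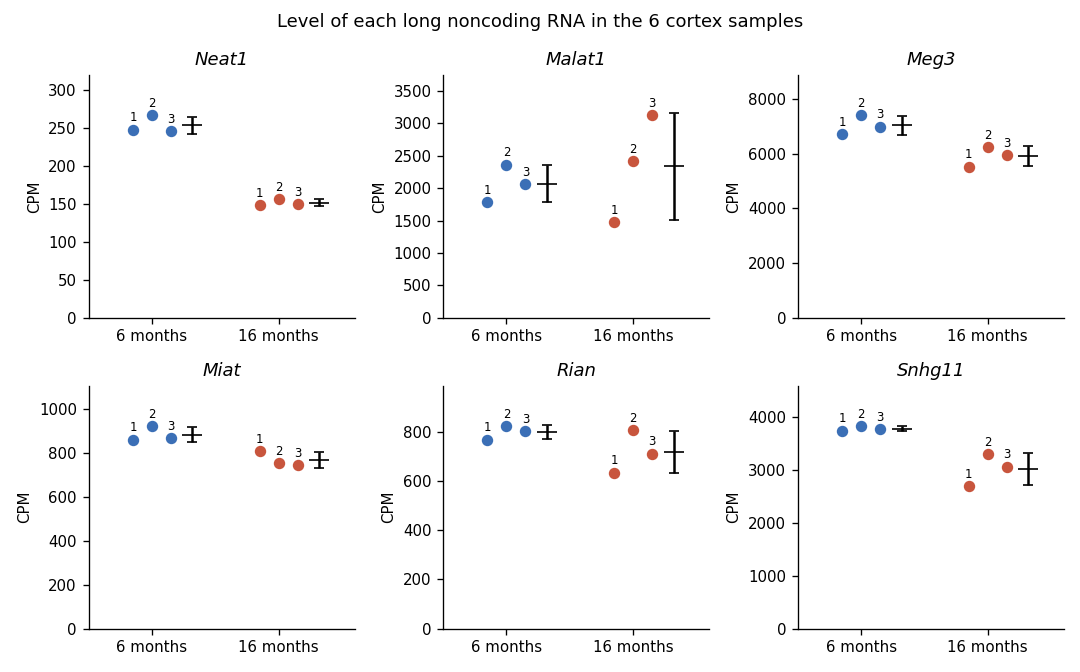
Level in counts per 1000000 reads (CPM, vertical axes from 0) of each long noncoding RNA in the 3 samples of 6 months (blue) and of 16 months (red); numbers are replicates, and the bar beside each group is the mean ± SD. Neat1 is at 247 to 267 CPM at 6 months and at 148 to 157 CPM at 16 months, while the 16-month samples of Malat1 spread from 1474 to 3124 CPM.

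Malat1, the neighbour of Neat1, varied widely within the older age. Malat1 was at 1784, 2362 and 2063 CPM in replicates 1 to 3 of 6 months and at 1474, 2417 and 3124 CPM in those of 16 months. The lowest and the highest of all 6 values were both samples of 16 months, so the range of the younger samples lay inside that of the older ones. The means were 2070 ± 290 and 2338 ± 828 CPM (SD, n = 3), with a log2 fold change of 0.18 (SE 0.22). Without replicate 3 of 16 months this value was -0.09, and it was 0.42 when replicate 1 of that age was left out, so a single sample set its direction.

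The spread of Malat1 at 16 months was large among all genes. On the log2 scale its samples had an SD of 0.203 at 6 months and 0.551 at 16 months, and at the older age 2.39% of the tested genes had a larger SD. Over all genes the median SD was 0.0626 in the younger and 0.127 in the older samples, and 75.5% of genes had the larger SD at 16 months. For Neat1 the SD was 0.0642 at 6 months and 0.0433 at 16 months. The ratio of Malat1 to Neat1 per kilobase of exon ran from 21.4 to 26.3 at 6 months and from 29.6 to 62.02 at 16 months. It uses the 20771 bases of the long Neat1 transcript and would be lower with the 3004 bases of the short one.

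Malat1 moved from sample to sample with the share of uniquely aligned reads that overlapped no annotated gene. That share was 24.9%, 26.2% and 25.4% in replicates 1 to 3 of 6 months and 22.0%, 25.8% and 27.8% in those of 16 months. Its means were 25.5 ± 0.698% and 25.2 ± 2.94% (two-sided exact permutation test between ages, p = 0.9, n = 3). Within each age the samples had the same order by Malat1 and by this share. Over the 6 samples, log2 CPM of Malat1 and the share gave Pearson's r = 0.957 (exact permutation p = 0.00417, adjusted over the 6 genes 0.025) and Spearman's rho = 0.943 (exact permutation p = 0.0167, adjusted 0.1). Without the 2 samples farthest from the median share, r was 0.933 for Malat1 and 0.974 for Rian. It lay between -0.127 and 0.33 for Neat1, Meg3, Miat and Snhg11, so the value without these samples does not set Malat1 apart. Of the tested genes, 0.146% had an r over all 6 samples as high as that of Malat1. The relation was looked at after the values of Malat1 were seen, so its p-values are a description. Their adjustment covers the 6 genes and not the other measures of the samples. For the other 5 RNAs r over all 6 samples lay between -0.172 and 0.576, with 0.137 for Neat1. The part of unassigned reads in the spread of Malat1 was not tested.

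**Figure D2:**
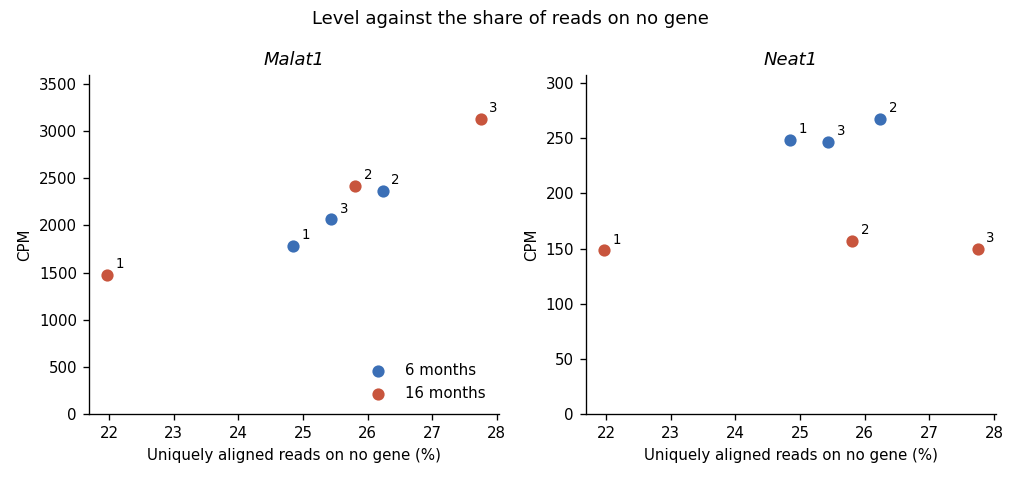
Level of Malat1 (left) and Neat1 (right) in CPM against the percent of uniquely aligned reads on no gene, 1 point per sample, numbered by replicate, 6 months in blue and 16 months in red. Malat1 climbs from 1474 CPM at 22.0% to 3124 CPM at 27.8%, while Neat1 is at 148 to 157 CPM in the 3 samples of 16 months at every share.

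The imprinted pair Meg3 and Rian lies on the plus strand of chromosome 12, Meg3 at chr12:109541001-109571726 and Rian at chr12:109603940-109661716, and their facing ends are 32214 bases apart. Meg3 was at 6712, 7399 and 6986 CPM in replicates 1 to 3 of 6 months and at 5521, 6241 and 5932 CPM in those of 16 months. The ages did not overlap. The mean was 7032 ± 346 CPM at 6 months and 5898 ± 361 CPM at 16 months (SD, n = 3), which is 16.1% lower, with a log2 fold change of -0.25 (SE 0.061). Meg3 alone took between 0.548% and 0.745% of all counted reads, more reads than any other gene in each of the 6 samples, a share that also reflects its 18089 bases of exon.

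Rian was at 769, 825 and 804 CPM in replicates 1 to 3 of 6 months and at 635, 809 and 713 CPM in those of 16 months. Replicate 2 of 16 months lay within the range of the younger age, so the ages overlapped. The log2 fold change was -0.15 (SE 0.080), and it was -0.07 after correction for GC content and length, -0.07 when replicate 1 of the older age was left out and -0.25 when replicate 2 was. The longest Rian transcript holds 35.8% GC, the lowest of the 6 genes. Deviations of genes from their own age's mean followed GC content across genes at r = 0.588 in replicate 1 and -0.582 in replicate 2 of 16 months, and at -0.13 to 0.16 in the other 4 samples. The ratio of Rian to Meg3 per kilobase was 0.111 to 0.114 at 6 months and 0.114 to 0.129 at 16 months.

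Miat, at chr5:112213228-112229395 on the minus strand, was at 858, 920 and 866 CPM in replicates 1 to 3 of 6 months and at 807, 752 and 741 CPM in those of 16 months. The ages did not overlap, with 882 ± 34 CPM at 6 months and 767 ± 34.9 CPM at 16 months (SD, n = 3). The log2 fold change was -0.20 (SE 0.055), or 13% lower. Miat shares 24.3% of its exon bases with Gm26953, a gene on the opposite strand, and the strand setting of the counting is not given in the sources used here, so reads on these bases may have been left uncounted.

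Snhg11, at chr2:158375638-158386145 on the plus strand, is listed as protein-coding in the annotation used here. It was at 3745, 3831 and 3777 CPM in replicates 1 to 3 of 6 months and at 2693, 3305 and 3065 CPM in those of 16 months. The younger samples were nearly level, while the older ones were lower and spread out, and the ages did not overlap. The means were 3784 ± 43.5 and 3021 ± 309 CPM (SD, n = 3), which is 20.2% lower, with a log2 fold change of -0.32 (SE 0.071). The SD on the log2 scale was 0.0166 at 6 months and 0.150 at 16 months.

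Across the 6 RNAs, 5 were lower and 1 was higher in the older cortex, where 49.7% of all tested genes were lower. Their median log2 fold change was -0.227, and that of all genes 0.00141. At an adjusted p under 0.05 (quasi-likelihood test of edgeR, Benjamini-Hochberg over all genes) 1 of the 6, Neat1, was called as lower, where 1.67% of all genes were called, 0.888% as lower and 0.783% as higher. In 4 of the 6, Neat1, Meg3, Miat and Snhg11, the ages did not overlap and the older samples were lower, which held for 11.5% of all genes (12.2% in the higher direction, 23.7% in either). Nothing is read from these counts, since the age difference was known when the genes were chosen. Together the 6 RNAs took 1.42%, 1.57% and 1.49% of the counted reads in replicates 1 to 3 of 6 months and 1.12%, 1.35% and 1.36% in those of 16 months.

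The size of the differences under 17 alternative settings is given as a range. The log2 fold change of Neat1 lay between -0.78 and -0.67, that of Snhg11 between -0.39 and -0.25, that of Meg3 between -0.30 and -0.21, that of Miat between -0.24 and -0.17 and that of Rian between -0.25 and -0.07. Calls of the 6 RNAs under these settings rest on the values that chose them and are no sign of stability. They are given beside the share of all genes called. Of all genes, 1.69% were called with DESeq2's size factors, 1.7% with upper quartile scaling, 2.35% without a filter, 1.67% with at least 10 counts per sample, 1.64% with the robust fit and 1.59% after thinning. The share was 3.07% with DESeq2's Wald test, with or without a prior (4 of the 6 RNAs), 4.57% with the replicate number as a block (3 of 6), 14.2% with GC and length offsets and 19.4% with these and the block (4 of 6 each). Leaving out replicate 1, 2 or 3 of the younger age left 0.318%, 0.328% and 0.277% of all genes called, and leaving out those of the older age 5.73%, 12.7% and 0.335%, where 5, 5 and 1 of the 6 RNAs were called.

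**Figure D3:**
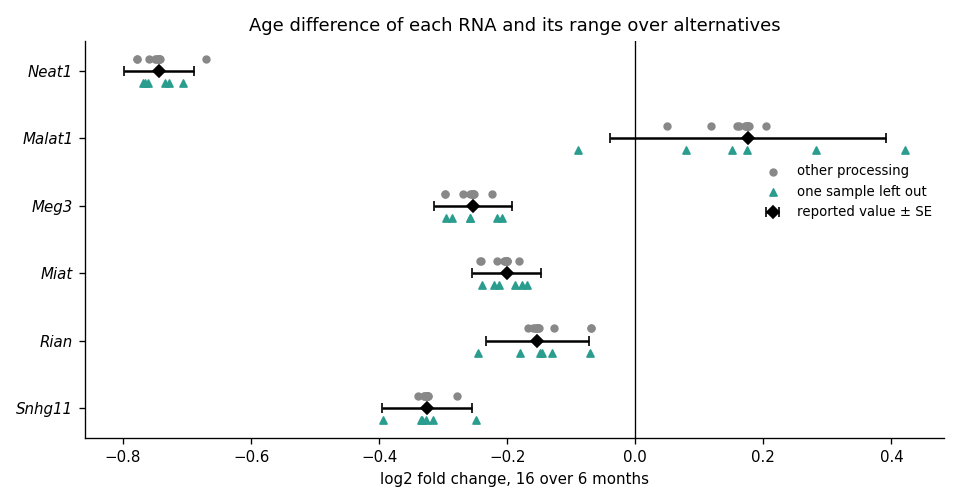
log2 fold change (16 over 6 months) of each RNA as reported (black diamond ± SE), with other processing (grey circles) and with each sample left out in turn (green triangles). Neat1 stays between -0.78 and -0.67, whereas Malat1 spans -0.09 to 0.42 when single samples are left out.

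Levels between the genes were compared as reads per kilobase of exon and per 1000000 counted reads. At 6 months Snhg11 was highest with 444 ± 5.11, followed by Meg3 with 389 ± 19.1, Malat1 with 296 ± 41.5, Miat with 94.8 ± 3.66, Rian with 43.9 ± 1.54 and Neat1 with 12.2 ± 0.551 (SD, n = 3). The ranges of neighbours in this order did not overlap. At 16 months Snhg11 (355 ± 36.2), Malat1 (335 ± 119) and Meg3 (326 ± 20) overlapped, while Miat (82.5 ± 3.75), Rian (39.4 ± 4.77) and Neat1 (7.30 ± 0.221) kept their places without overlap. The place of Neat1 depends on its length: divided by the 3004 bases of the short transcript in place of the 20771 bases of the long one, an alternative added after seeing the data, its level was 84.6 at 6 months and 50.5 at 16 months, above Rian and below Miat. With the length of the longest transcript, Rian was at 98.8 and Miat at 96.2 at 6 months.

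**Figure D4:**
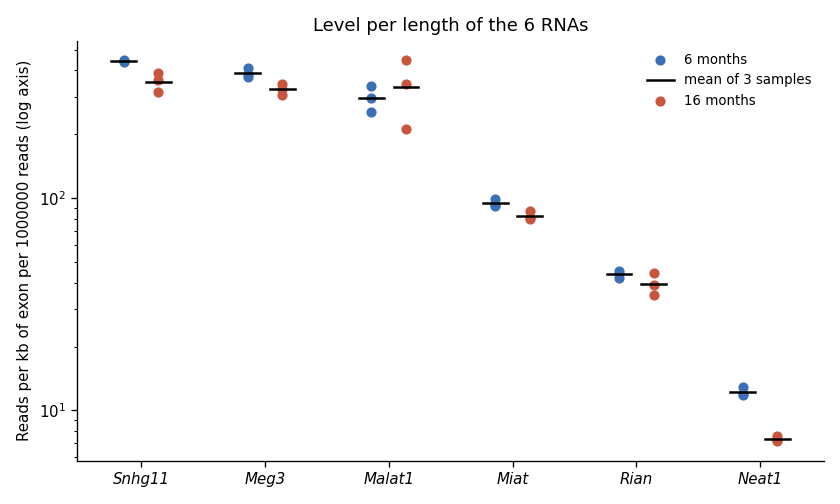
Reads per kilobase of exon and per 1000000 counted reads (log axis) of the 6 RNAs in each sample of 6 months (blue) and 16 months (red), with the mean of each age as a black line. Snhg11, Meg3 and Malat1 lie between 211 and 450, and Neat1 lies lowest at 7.14 to 12.9.

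The likeness of genes to each RNA was measured as the root mean square difference of centred log2 CPM over the 6 samples, among 14607 genes. These samples span both ages, so a shared age difference or a shared deviation of a single sample brings genes close. The values are a description. The profile of Meg3 was closest to those of Snhg11 (0.0604) and Rian (0.0706) among the 6 RNAs, and those of Neat1 and Malat1 were the farthest apart (0.539). Closest to Neat1 were Abca8a (0.0559), Zfp54, Cyp39a1, Fermt1 and Spag6 (0.0798), where the median over genes was 0.386. The log2 fold changes of these genes between ages lay between -0.81 and -0.65. Closest to Malat1 were 4933423P22Rik (0.0877), D130040H23Rik, Gm26660, Mei4 and Muc15 (0.131), with a median of 0.359. Closest to Meg3 were Pla2g16 (0.0217), Gtdc1, Tipin, A330023F24Rik and A830036E02Rik, and to Rian Mrps14 (0.013), Commd8, Nvl, Eny2 and Rbm39. The medians over genes were 0.172 for Meg3 and 0.165 for Rian. Closest to Miat were Plekhh2 (0.0214), Atg16l2, Arhgap45, Chkb and Anapc13, and to Snhg11 Mtln (0.0214), Fgl2, Ccng1, 2410006H16Rik and Epyc. Here the medians were 0.151 for Miat and 0.209 for Snhg11.

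The genes of the protein partners of these RNAs did not pass the edgeR test between ages. For the counts at an unadjusted p that follow, the share over all genes tested was 17.4% (2987 of 17120). Of 20 paraspeckle protein genes 0 were called by edgeR or DESeq2, 1 had an unadjusted p under 0.05, and their median log2 fold change was -0.01. Sfpq, a core paraspeckle protein, was at 302 ± 11.7 and 305 ± 12.0 CPM (log2 fold change 0.01, adjusted p = 0.936 in the edgeR test), and Tardbp was at 278 ± 12.4 and 250 ± 27.3 CPM (-0.16, adjusted p = 0.326). Of 18 nuclear speckle genes 0 were called by edgeR and 1 by DESeq2 (the splicing factor gene Srsf5, named after its values were seen), 3 had an unadjusted p under 0.05, and the median was -0.08. Srrm2, a speckle scaffold, was at 724 ± 17.9 and 653 ± 19.1 CPM (-0.15, adjusted p = 0.164), and Son and Sf3b1 differed by -0.05 and -0.04.

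Of 11 enzymes and subunits of 3′ end processing, which include those that cleave the ends of Malat1 and Neat1, 0 were called by edgeR or DESeq2 and 4 had an unadjusted p under 0.05 (median -0.05), with Pop5 at 0.02, Elac2 at 0.09 and Rpp14 at -0.17. Of the 4 partners listed for Miat 0 were called by edgeR or DESeq2, and 0 had an unadjusted p under 0.05. The gene of the splicing factor Sf1 had a log2 fold change of 0.00 (adjusted p = 0.99), Qk, which encodes Qki, -0.06 and Srsf1 -0.06. A missed threshold does not show equal levels. Simulated samples of this size recovered 78.0% of changes of 0.75 on the log2 scale. The log2 fold changes of the partner genes lay between -0.314 and 0.162, and recovery of changes of that size was not simulated.

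Among the other genes of the Dlk1-Dio3 domain, 0 of 5 were called by edgeR or DESeq2 and 1 had an unadjusted p under 0.05, with a median log2 fold change of 0.12. Mirg, a noncoding RNA transcribed downstream of Rian, was at 34.3 ± 0.706 CPM at 6 months and 30.5 ± 3.02 CPM at 16 months (log2 fold change -0.17, adjusted p = 0.277 in the edgeR test). The paternally expressed Rtl1 had 0.08, Dlk1, the protein-coding gene that names the domain, 0.25 (adjusted p = 0.404), and Begain 0.15.

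Of 28 tested imprinted genes outside the domain, 2 fell and 0 rose (7.14% called, beside 1.67% of all genes). DESeq2 called 2, beside 3.07% of all genes. An unadjusted p under 0.05 was found for 5 (17.9%), beside 17.4% of all genes. Igf2, an insulin-like growth factor, fell from 48.5 ± 1.01 to 35.1 ± 0.739 CPM (log2 fold change -0.46, SE 0.052, adjusted p = 0.0025 in the edgeR test, n = 3). Cdkn1c, a cyclin-dependent kinase inhibitor, fell from 5.33 ± 0.205 to 3.62 ± 0.287 CPM (-0.55, SE 0.095, adjusted p = 0.0224). Peg3, Nap1l5 and Rasgrf1 had -0.11, -0.09 and 0.05. Summed levels of 5 meningeal fibroblast markers moved in the direction of Igf2, from 48.8 to 52.3 CPM at 6 months and from 40.7 to 43.7 CPM at 16 months, and their part in its difference was not tested. Igf2 was called under all 17 alternatives and Cdkn1c under 13, not when any sample of 6 months or replicate 3 of 16 months was left out (highest adjusted p 0.135).

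Of 12 tested small nucleolar RNA host genes other than Snhg11, 1 fell and 0 rose (8.33% called, beside 1.67% of all genes). In 10 the log2 fold change was below 0, beside 49.7% of all genes, and the median was -0.17. DESeq2 called 2, beside 3.07% of all genes. An unadjusted p under 0.05 was found for 3 (25%), beside 17.4% of all genes. Zfas1 fell from 30.9 ± 1.37 to 24.7 ± 0.769 CPM (-0.32, SE 0.060, adjusted p = 0.0276 in the edgeR test, n = 3). Gas5, a growth-arrest transcript, was at 142 ± 10.5 and 113 ± 10.4 CPM (-0.32, adjusted p = 0.0766), and Snhg12 had -0.13. Of 16 further long noncoding RNAs known by name 1 rose and 0 fell (6.25% called), with a median of -0.10. DESeq2 called 2 of them, and 5 (31.2%) had an unadjusted p under 0.05. Neither list was tested as a set. Six3os1, transcribed opposite to the homeobox gene Six3, rose from 2.29 ± 0.133 to 3.69 ± 0.461 CPM (0.69, SE 0.12, adjusted p = 0.026). Mir124a-1hg, a host of the neuronal miR-124, was at 340 ± 2.18 and 295 ± 4.47 CPM (-0.21, adjusted p = 0.0632), 1700020I14Rik, listed elsewhere as Oip5os1, had -0.19, and Tug1 -0.01. Zfas1 and Six3os1 were not called without any one sample of 6 months or without replicate 3 of 16 months (highest adjusted p 0.192 and 0.166).

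**Figure D5:**
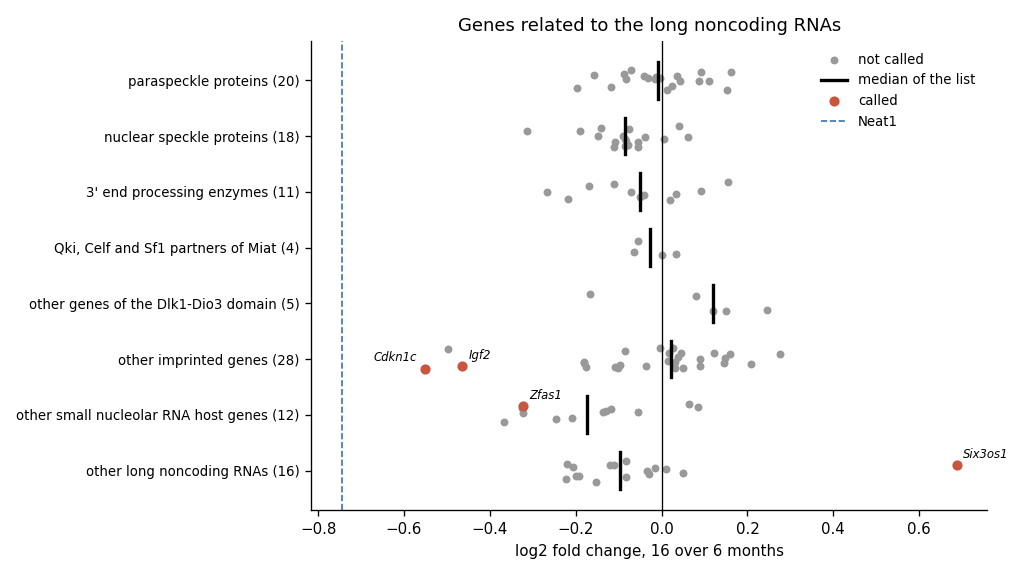
log2 fold change (16 over 6 months) of the tested genes in 8 lists related to the long noncoding RNAs, with the number tested in brackets; red points passed an adjusted p under 0.05, black bars are list medians, and the dashed line is Neat1. The 20 paraspeckle and 18 speckle genes hold no red point, and Igf2, Cdkn1c, Zfas1 and Six3os1 are the called ones.

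Of the 1423 other tested genes with a long noncoding biotype, 1 rose and 6 fell (0.492% called). They include those genes of the lists above that have this biotype, so Six3os1 and Zfas1 are counted again here. Of protein-coding genes 1.79% were called, a difference that was not tested. At an unadjusted p under 0.05 the shares were 14.1% and 18.1%. The median log2 fold change of the long noncoding genes was -0.06, and 849 lay below 0. The 5 called with the greatest absolute change were A530053G22Rik (-2.15, SE 0.30), Gm16233 (-1.93), 3222401L13Rik (-0.72), Six3os1 (0.69) and Gm4211 (-0.67). A530053G22Rik was at 0.576, 0.533 and 0.667 CPM at 6 months and at 0.121, 0.160 and 0.117 CPM at 16 months, and Gm16233 was at 0.640, 0.500 and 0.596 CPM and at 0.181, 0.160 and 0.117 CPM. Both were close to the limit of 3 counts at 16 months and passed the filter on low counts only through the samples of 6 months, so their calls and the size of their differences rest on that filter. The means of these 5 at 6 months lay between 0.579 and 4.54 CPM.

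The neighbourhoods of the 6 genes held no called gene besides Neat1 itself. Within 200 kb, 0 of 17 tested genes were called around Neat1 and around Malat1, 0 of 14 around Meg3 and around Rian, 0 of 10 around Miat and 0 of 6 around Snhg11, by edgeR and by DESeq2. At an unadjusted p under 0.05 these counts were 1, 4, 0 and 1, where the share over all genes was 17.4%. Some of the genes counted lie at 0 bases from an RNA and do not flank it. They are Gm24564, DQ267102, Mir341, Mir1188, Gm23600 and Gm26945 at Rian and the small nucleolar RNA gene Gm25129 at Snhg11. Gm25129, named after its values were seen, was at 2.87 ± 0.404 and 1.92 ± 0.306 CPM (-0.56, adjusted p = 0.106 in the edgeR test). Frmd8, 4224 bases from Neat1, was at 28.9 ± 1.00 and 26.5 ± 1.65 CPM (log2 fold change -0.13, adjusted p = 0.336 in the edgeR test). Snhg17 and Ralgapb, the nearest on each side of Snhg11, had -0.06 and 0.02, and Cryba4, near Miat, had 0.18. Mir3070b, near Meg3, was at 0.464 ± 0.105 and 0.221 ± 0.081 CPM (-1.02, adjusted p = 0.174). It passed the filter on low counts, at 0.295 CPM, only through the samples of 6 months, so its difference rests on that filter. B830012L14Rik, near Rian, was at 0.796 ± 0.297 and 1.59 ± 0.906 CPM (1.07, adjusted p = 0.2).

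Summed marker levels of other cell types were set beside Neat1. The astrocyte list stood at 1.09 times, the oligodendrocyte list at 1.01 times, the microglia list at 1.01 times and the pan-neuronal list at 1.01 times the level of 6 months in the 16-month samples, where Neat1 stood at 0.597 times. The lowest of the 15 lists, the meningeal fibroblast markers, stood at 0.834 times, pericyte and smooth muscle markers at 0.907 times and endothelial markers at 0.971 times. The highest were 5 red blood cell markers (27.3 to 30.8 CPM at 6 months, 44.9 to 50.3 CPM at 16 months), choroid plexus markers (16.5 to 17.7 and 24.9 to 27.9 CPM), dentate gyrus markers (49.7 to 52.5 and 70.4 to 74.6 CPM) and oligodendrocyte precursor markers (230 to 240 and 273 to 312 CPM). The exact permutation test gave 0.1, the smallest p that 3 against 3 samples allow, for each list whose ages did not overlap, and 0.15 after adjustment over the 15 lists. Thalamus markers stood at 1.08 times, with overlapping ages. The edgeR test across all genes called 3 of 5 dentate gyrus, 3 of 6 thalamus and 2 of 5 red blood cell markers. It called 1 each of the interneuron, astrocyte, oligodendrocyte, oligodendrocyte precursor, microglia and choroid plexus markers and 0 in the remaining lists, beside 1.67% of all genes. The part of cell composition in the level of any of the 6 RNAs was not tested.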

How the data were processed

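RNA of whole cortical tissue from C57BL/6 mice of 6 and 16 months (n = 3 each) was sequenced by the authors as polyadenylated RNA. The deposited values are the authors' raw counts, whole numbers of reads per Ensembl gene without normalization. The paper's methods name STAR in 2-pass mode and HTSeq, while the submitters' processing notes list CASAVA 1.8.2, STAR 2.3.0e and featureCounts 1.5.0-p1 with build mm10. The files end with HTSeq-style summary lines, which were kept out of library sizes and tests: reads on no gene made up 22.0% to 27.8% of uniquely aligned reads. The Ensembl release and the strand setting are not given in the sources used here.

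Of 38355 identifiers, 36602 matched GENCODE M21 (GRCm38) and 1753 did not. Sequences, positions and lengths come from that annotation. Counts were fitted with edgeR 4.0.16 in R 4.3.3 (TMM, filterByExpr, quasi-likelihood test, Benjamini-Hochberg at 0.05, no covariates); log2 CPM used a prior count of 2. The depth of 29797253 to 46519280 counts puts the 3-count limit at or under 0.1 CPM, which covers counting error only. The samples are labelled as separate. The edgeR p-values set the difference between ages against the spread between samples of an age, which is estimated with information from all genes. Single values were compared by exact permutation tests over samples, two-sided.

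The 6 RNAs, the gene lists and the tests were chosen with earlier results of these data known. Named are all 6 RNAs, the called genes and the 3 genes with the highest mean CPM of each list, the nearest tested gene on each side within 200 kb, the 5 most alike genes with a mean of at least 1 CPM, and the 5 called long noncoding genes with the largest absolute change, with others such as Dlk1 named among these. Some genes that this rule names are not reported here. Of the listed genes, 16 symbols were not matched and are not analysed here.

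Alternatives were DESeq2 size factors, upper quartile scaling, no filter or at least 10 counts in every sample, a robust fit, DESeq2 1.42.0 with and without a prior, the replicate number as a block, GC and length offsets (20 bins) with and without the block, thinning to the smallest total, each sample left out in turn, and other gene lengths. In a simulation of the 16 against 6 months comparison, with 17120 genes at their measured means and depths and 200 of them changed, the test recovered 86.0% of changes of 1 and 78.0% of changes of 0.75 on the log2 scale, with 3.53% false calls, and called 0 genes where none changed. The simulation drew each gene independently, without deviations that genes share within a sample. Figures were drawn with matplotlib 3.10.9.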

Additional observations from a re-analysis of the deposited data

How the results depend on the processing

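The comparison of 16 with 6 months called 286 of 17120 genes, 1 of the 6 RNAs and 4 companion genes. In the same order, the counts were 648, 3 and 8 without a filter on low counts, 469, 4 and 7 with DESeq2 (with or without a prior), 783, 3 and 9 with the replicate block, 2425, 4 and 23 with GC and length offsets, and 3321, 4 and 31 with these offsets and the replicate block. Upper quartile scaling called 2 of the 6 RNAs. Leaving out each sample in turn gave 48 to 2211 genes, 1 to 5 of the 6 RNAs and 1 to 29 companion genes. Without replicate 1, 2 or 3 of 6 months 55, 57 and 48 genes were called, and without replicate 1, 2 or 3 of 16 months 995, 2211 and 58. The cause was not tested. The log2 fold change of Neat1 was -0.67 with DESeq2's prior, which shrinks fold changes by construction, and between -0.78 and -0.67 over all 17 alternatives. Calls of the 6 RNAs rest on the values that chose them and say nothing about stability. Same-numbered samples deviated together with r = 0.180, 0.0958 and 0.0351 across genes. Replicate 3 of 16 months correlated best with replicate 2 of 6 months (0.0379), which is close to 0.0351. The shared numbers were not taken as pairs, and these values do not settle whether same-numbered samples share a batch. Counts of the 6 RNAs lay between 4915 and 314623 per sample, while genes near 3 counts are limited by depth.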
